A study of Mus musculus with 6 samples.

Results

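Ribosomal proteins of the cytosolic and of the mitochondrial ribosome were compared in livers of mice given atractylodin, a compound of Atractylodes plants, or vehicle. Members were all gene rows whose symbol begins with Rpl or Rps (cytosolic) or with Mrpl or Mrps (mitochondrial) and a digit, together with Rplp0, Rplp1, Rplp2 and Rpsa. The ribosomal S6 kinase rows and 7 rows named as pseudogenes were left out. This gave 165 of 23282 rows, 88 cytosolic and 77 mitochondrial.

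The series asked how atractylodin acts on fatty liver. Male C57BL/6N mice, 8 weeks old at the start, ate a high-fat diet for 12 weeks. In the atractylodin group (3 libraries) they received 10 mg/kg by mouth on 5 days per week during the last 4 weeks, and in the vehicle group (3 libraries) the vehicle alone. All 6 libraries therefore come from obesogenic feeding, and no mice on a control diet are part of the comparison. The labels number the libraries without saying that each is a separate animal, and the p-values then reflect variation among libraries only, which may be technical.

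The cytosolic ribosome reads nuclear-encoded mRNAs, and its proteins belong to the small or the large subunit according to the S or L in their names. Mouse mRNAs of these proteins begin with a short stretch of C and T, the 5′ terminal oligopyrimidine tract, through which the mTOR kinase and the RNA-binding protein LARP1 set their translation. The mitochondrial ribosome reads the few mRNAs encoded in mitochondrial DNA, all of which specify membrane subunits of the respiratory chain and ATP synthase, yet its own proteins are encoded in the nucleus and imported. Liver cells are rich in both ribosomes, since they secrete plasma proteins and hold many mitochondria.

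Start sites of some members are shown because the tract is where the mRNAs of the 2 ribosomes are known to differ. Each line gives the 15 bases before and the 15 bases after the start that RefSeq annotates on GRCm38.p6, read 5′ to 3′, with the longest run of C and T that holds both letters in capitals. These lines are examples. Named members not shown went the other way too, with a longest run of 9 for mitochondrial Mrps21 and 5 for cytosolic Rpl36al. The first 5 lines are cytosolic and the rest mitochondrial.
Rps9 (chr7:3704026-3704055, plus strand): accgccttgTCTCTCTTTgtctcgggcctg
Rplp2 (chr7:141447636-141447665, plus strand): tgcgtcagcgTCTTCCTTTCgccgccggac
Rpl13a (chr7:45128731-45128760, minus strand): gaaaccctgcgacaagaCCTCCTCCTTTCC
Rps27 (chr3:90213634-90213663, minus strand): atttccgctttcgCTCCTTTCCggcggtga
Rps27rt (chr9:114982725-114982754, minus strand): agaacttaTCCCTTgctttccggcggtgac
Mrpl3 (chr9:105053253-105053282, plus strand): aagtggcccggctgtgCTTTTCCTCCgcgg
Mrpl12 (chr11:120484622-120484651, plus strand): agctcgCCTCCTCCCggatagagcgtcgct
Mrpl53 (chr6:83109093-83109122, plus strand): TTCCggggtggaggtaaccatggcggcggc
Mrps12 (chr7:28741807-28741836, minus strand): TCactaaggaggaaccccggaaggggctgg
Mrps17 (chr5:129715482-129715511, plus strand): gggCTagcgcaccgtgagcgtcatcacgct
Mrps22 (chr9:98601665-98601694, minus strand): cgagccggaagttgCTCTatcgattccggc

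RefSeq gave exactly 1 start for 122 of the 165 members. A run of 8 or more such bases lay in this 30-base window for 22 of 57 cytosolic members (38.6%) and 9 of 65 mitochondrial members (13.8%), against 11.5% of 22862 genes with 1 start. A run can lie before the annotated start, as that printed for Mrpl12 does, so these shares do not measure the tract of the mRNA itself. The letters CCGGAAG, the core bound by ETS factors such as GABP, were searched on both strands of the 300 bases from 250 before to 50 after the start. They were found for 22 of 57 cytosolic (38.6%) and 23 of 65 mitochondrial members (35.4%), against 9.12% of those genes. The letters AAGATGGCG, bound by YY1, were found for 3 cytosolic and 8 mitochondrial members and in 1.55% of all. Such a match describes the letters in the window and does not show a bound site.

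Liver RNA was profiled by QuantSeq, which sequences the 3′ end of each transcript, so counts are not divided by transcript length. Total counts were 9871762 to 12565393 for atractylodin and 1831461 to 12111553 for vehicle. Vehicle 1 was the shallowest, so its counting error was the largest. Rn45s, the row of the ribosomal RNA precursor, took 4.53% to 5.41% of counts with atractylodin and 4.14% to 4.98% with vehicle, and did not pass (edgeR adjusted p = 0.377). Hepatocyte markers such as Alb summed to 83630 to 92970 CPM (the usual depth-normalised count, here over the TMM-scaled library size) with atractylodin and 87730 to 95680 CPM with vehicle. No listed marker present in the files was at 0 in all libraries. Macrophage, endothelial and stellate cell markers summed to between 276 and 517 CPM each, and T and NK cell, B cell and neutrophil markers to at most 22.6 CPM. In edgeR, 1 of 7 hepatocyte markers was called higher, 1 of 8 endothelial markers higher and 2 lower, 1 of 2 T and NK cell markers lower, and none of the macrophage, stellate or neutrophil markers. Cholangiocyte markers fell in 3 of 4 tested, and all summed to 33.1 to 35.7 CPM with atractylodin and 64.6 to 81.3 CPM with vehicle. The markers' part in the results below was not tested. In bulk liver, fewer cells of a type and less RNA per cell cannot be told apart.

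No ribosomal protein gene of either ribosome passed the test between atractylodin and vehicle livers. Of 162 members with enough counts to test, 85 cytosolic and 77 mitochondrial, 0 passed an adjusted p of 0.05 in edgeR's quasi-likelihood test. Of all 12505 tested rows, 906 passed (7.25%), with 490 higher (3.92%) and 416 lower (3.33%). Scaled by total counts, 312 were higher and 707 lower. At an unadjusted p of 0.05, edgeR gave 9 of 85 cytosolic and 9 of 77 mitochondrial members, where 21.5% of all rows (2693 of 12505) lay under it. Of the mitochondrial ones, 3 were higher (3.90%, against 11.1% of all rows) and 6 lower (7.79%, against 10.4%). DESeq2 and limma-voom also called 0 members, with 5 and 9 cytosolic and 6 and 8 mitochondrial members at an unadjusted p of 0.05. The remaining 3 members, Rpl10l, Rpl39l and Rpl3l, paralogs known from testis or muscle, had at most 4 counts in any library and were not tested.

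The estimates were small and precise enough to bound most changes. For 83 of 85 cytosolic and 66 of 77 mitochondrial members, the 95% interval of the difference lay within 1.5-fold in either direction. Log2 fold changes ran from -0.14 to 0.37 for cytosolic and from -0.49 to 0.41 for mitochondrial members. Their median standard errors were 0.10 and 0.13.

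The median log2 fold change was 0.11 for cytosolic members (69 of 85 estimates above 0) and -0.03 for mitochondrial members (34 of 77 above 0), against a median of -0.0015 and 49.8% above 0 over all tested rows. By subunit, the medians were 0.13 for the cytosolic small, 0.11 for the cytosolic large, -0.02 for the mitochondrial small and -0.03 for the mitochondrial large subunit. Scaling by total counts gave a median of -0.087 over all rows, with the cytosolic median at 0.025 and the mitochondrial median at -0.12. Relative to the median of all rows, the cytosolic median stood 0.11 higher. Rescaling whole libraries shifts all rows nearly alike, so this gap could hardly differ between the scalings.

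**Figure D1:**
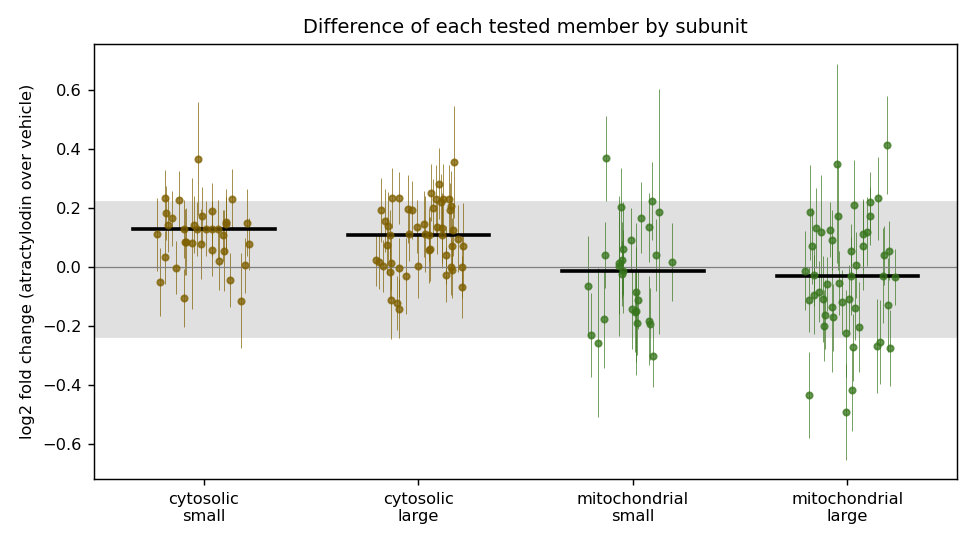
Log2 fold change (atractylodin over vehicle, y axis) of each of the 162 tested members, by subunit; points are members, bars their standard errors, black lines the subunit medians and the grey band the middle 50% of all tested rows. The cytosolic medians lie at 0.13 and 0.11 and the mitochondrial ones at -0.02 and -0.03.

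All 3 atractylodin libraries lay above all 3 vehicle libraries for 21 of 85 cytosolic members (24.7%), where 13.5% of all tested rows did so. They lay below for 1 cytosolic member, Rpl36al (1.18%, against 12.6% of all rows). For mitochondrial members the groups were apart with higher atractylodin levels in 3 of 77 (3.90%) and with lower ones in 10 (13.0%), close to the 12.6% of all rows. The share of cytosolic members higher at an unadjusted p of 0.05, 10.6%, was near the 11.1% of all rows, and 0 were lower, where 10.4% of all rows were. No test was run over the members as a list, so these shares describe the 2 sets.

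Within a library, the ratio of the 2 ribosomes does not depend on how libraries are scaled. Counts summed over cytosolic members were 3.92, 3.91 and 3.67 times those summed over mitochondrial members in atractylodin 1, 2 and 3, and 3.53 times in each of vehicle 1, 2 and 3. The log2 ratio averaged 1.94 ± 0.05 with atractylodin and 1.82 ± 0.0017 with vehicle (SD, n = 3 each), a difference of 0.12. The vehicle SD is smaller than counting error alone would give, so it does not measure the variation among vehicle libraries. The 95% counting interval was 1.80 to 1.83 for vehicle 2 and 1.80 to 1.84 for vehicle 3. All atractylodin libraries were higher, and atractylodin 3 lay closest to the vehicle libraries. Its 95% counting interval, 1.86 to 1.89 (exact binomial, counting error only), reached that of the shallow vehicle 1, 1.78 to 1.86. Without atractylodin 3 the difference was 0.15, and without vehicle 1 it was 0.12.

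The summed levels themselves overlapped between groups. Cytosolic members summed to 12377, 12523 and 11645 CPM with atractylodin and 11723, 11101 and 11516 CPM with vehicle. Mitochondrial members summed to 3155, 3202 and 3171 CPM with atractylodin and 3317, 3148 and 3261 CPM with vehicle. As a share of total counts, without TMM scaling, mitochondrial members were 0.302% to 0.312% with atractylodin and 0.330% to 0.336% with vehicle, with no overlap, while the cytosolic shares (1.11% to 1.22% and 1.16% to 1.19%) overlapped. Without TMM scaling, rows in general stood lower with atractylodin, with a median log2 fold change of -0.087 over all rows. The TMM factors were 0.954 to 0.990 with atractylodin and 1.02 to 1.05 with vehicle. The balance of subunits was alike in both groups. Large over small subunit counts were 1.49 to 1.57 with atractylodin and 1.53 to 1.58 with vehicle for the cytosolic ribosome, and 2.18 to 2.25 and 2.20 to 2.25 for the mitochondrial one.

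**Figure D2:**
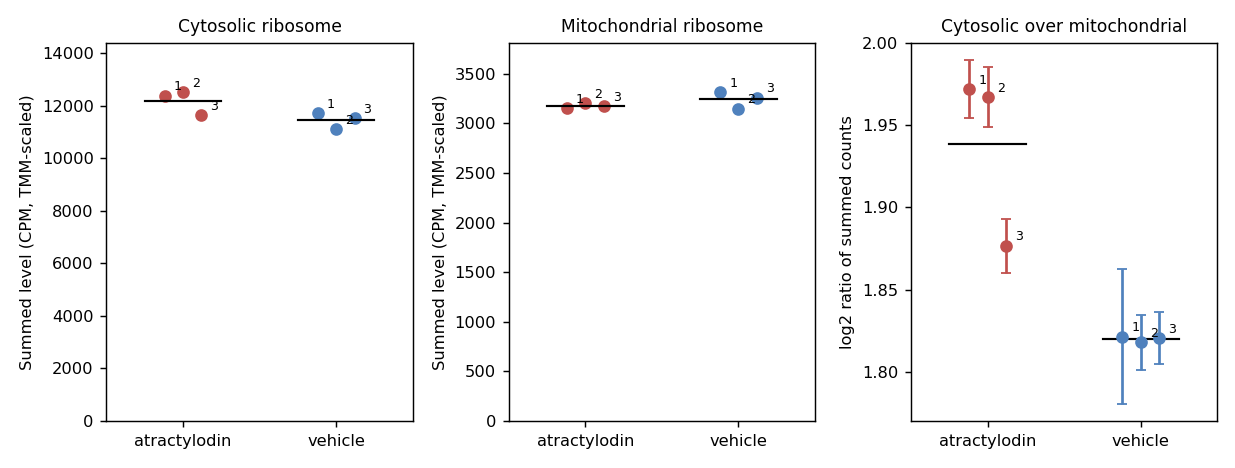
Summed CPM of cytosolic members, summed CPM of mitochondrial members, and log2 ratio of their summed counts, per library (numbers mark libraries, black lines group means, bars of the third panel exact 95% counting intervals; its axis does not start at 0). The sums overlap between groups, while the 3 atractylodin ratios, 1.88 to 1.97, lie above the 3 vehicle ratios at 1.82.

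Among small subunit proteins of the cytosolic ribosome, the most abundant rows changed little. Rps14, a protein of the small subunit platform, stood at 532, 539 and 479 CPM with atractylodin and 476, 457 and 485 CPM with vehicle (log2 fold change 0.13 ± 0.09 SE). Rps9 stood at 397, 430 and 401 CPM with atractylodin and 383, 376 and 403 CPM with vehicle. In Rps14 and Rps9 the groups overlapped, as they did in Rps20 (227 to 255 CPM with atractylodin and 229 to 242 CPM with vehicle).

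The smallest p in this subunit was that of Rps27a (chromosome 11, 29545846 to 29548109 on GRCm38), which encodes a fusion of ubiquitin to a ribosomal protein. Its levels were 183, 172 and 153 CPM with atractylodin and 148, 146 and 139 CPM with vehicle. The groups did not overlap and differed by 0.23 ± 0.09 on the log2 scale (SE), with an edgeR adjusted p of 0.156. Most of its transcript end is also present in annotated pseudogenes.

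Large subunit rows of the cytosolic ribosome showed the same small scale of difference. Rplp1 and Rplp2 form the acidic stalk that recruits elongation factors. Rplp1, the most abundant member, stood at 644, 662 and 684 CPM with atractylodin and 728, 621 and 657 CPM with vehicle (log2 fold change -0.01 ± 0.09 SE), with full overlap. Its partner Rplp2 (chromosome 7, 141447370 to 141451585) stood at 223, 232 and 194 CPM with atractylodin and 192, 175 and 179 CPM with vehicle (0.25 ± 0.10 SE, edgeR adjusted p = 0.125), without overlap. The pseudogene row Rplp2-ps1, not a member, held more counts than Rplp2 itself, at 541, 505 and 452 CPM with atractylodin and 423, 417 and 416 CPM with vehicle (0.26 ± 0.09 SE, edgeR adjusted p = 0.115). The Rplp2 rows were thus apart in the same direction, and the sources used here do not say how reads were divided between them. No 50-base word of the Rplp2 transcript end occurred in another gene of GENCODE M21.

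Rpl13a, known beyond the ribosome for silencing inflammatory mRNAs in the GAIT complex of human myeloid cells, stood at 277, 258 and 252 CPM with atractylodin and 231, 217 and 222 CPM with vehicle (chromosome 7, 45125558 to 45128761). The difference was 0.23 ± 0.09 (SE, edgeR adjusted p = 0.128), with all atractylodin libraries higher. Rpl22, an RNA-binding protein that is dispensable for the mouse, stood at 406, 422 and 402 CPM with atractylodin and 387, 365 and 378 CPM with vehicle (0.12 ± 0.09 SE, edgeR adjusted p = 0.455), also without overlap.

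**Figure D3:**
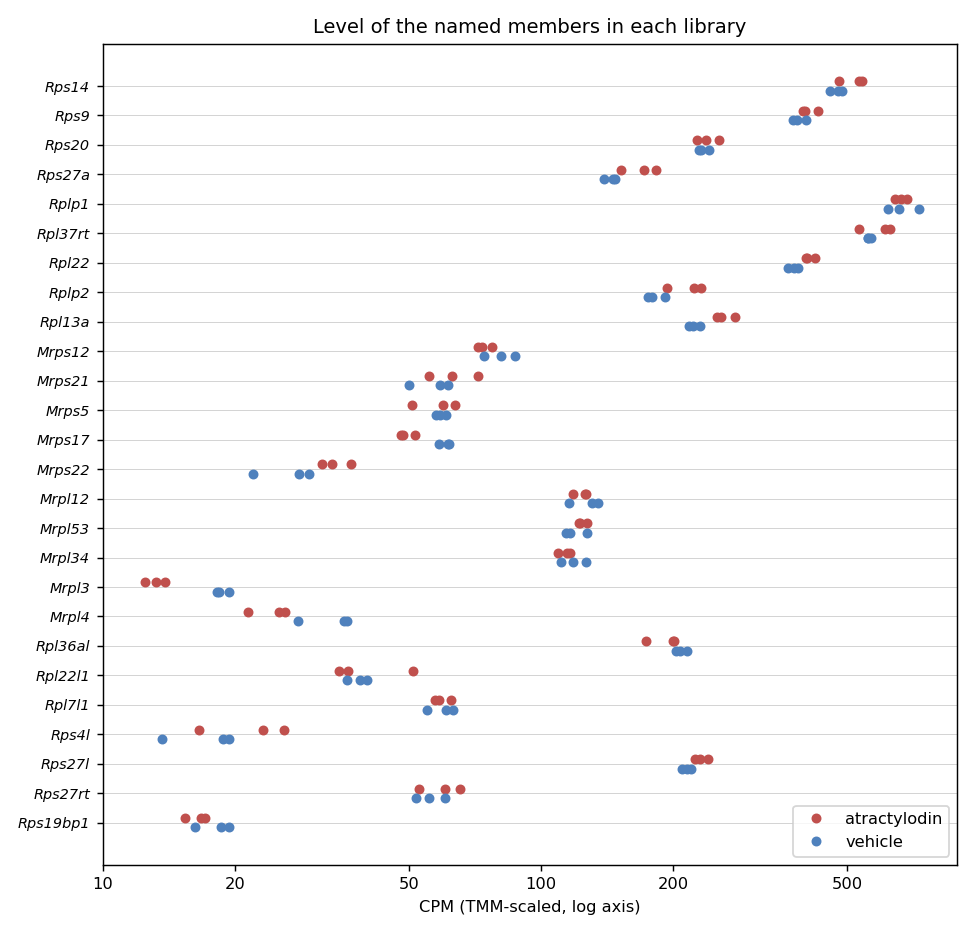
CPM of 26 named members in each library (x axis, log scale); red points are atractylodin libraries and blue points vehicle libraries. Mrpl3, Mrpl4 and Mrps17 have all red points to the left of the blue ones, Rplp2, Rpl13a, Rps27a and Mrps22 to the right, and most other rows overlap.

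In the mitochondrial large subunit the abundant members overlapped between groups. Mrpl12, which is also known to bind the mitochondrial RNA polymerase, stood at 127, 126 and 119 CPM with atractylodin and 135, 116 and 131 CPM with vehicle. Mrpl53 (122 to 128 CPM with atractylodin and 114 to 127 CPM with vehicle) and Mrpl34 (109 to 117 and 111 to 127 CPM) were likewise interleaved. For Mrpl53 the whole transcript end lies within another annotated gene, so its counts are uncertain.

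The lowest p-values of all members were in this subunit and were below vehicle. Mrpl3 (chromosome 9, 105053239 to 105079888), a protein near the peptidyl transferase centre, stood at 12.4, 13.9 and 13.2 CPM with atractylodin and 19.4, 18.4 and 18.3 CPM with vehicle. The groups were apart by -0.49 ± 0.16 on the log2 scale (SE), with an edgeR adjusted p of 0.0746. Mrpl4 (chromosome 9, 21002738 to 21008839) stood at 21.4, 26.1 and 25.2 CPM with atractylodin and 35.5, 27.8 and 36.1 CPM with vehicle, a difference of -0.44 ± 0.15 (SE, edgeR adjusted p = 0.0814). Vehicle 2 was the vehicle library nearest to the atractylodin ones, and without it Mrpl4 passed (-0.56, edgeR adjusted p = 0.0467).

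Mrpl27 (chromosome 11, 94653767 to 94660089), named after its values were seen, stood at 35.3, 47.2 and 50.9 CPM with atractylodin and 66.7, 51.6 and 62.4 CPM with vehicle (-0.42 ± 0.14 SE, edgeR adjusted p = 0.0884). It passed without atractylodin 3 (adjusted p = 0.0436), and with no filter on low counts (adjusted p = 0.0163). It overlaps Eme1 on the opposite strand, and the strand setting of the counting is not given in the sources used here. Such an overlap is not particular to Mrpl27. It was found for 34 of 77 mitochondrial members, Mrpl3 and Mrps22 among them, and for 24 of 88 cytosolic members.

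Small subunit proteins of the mitochondrial ribosome went both ways. Mrps17 (chromosome 5, 129715497 to 129722556), counterpart of a bacterial protein that binds small subunit rRNA early in assembly, stood at 51.5, 48.5 and 47.9 CPM with atractylodin and 58.7, 61.5 and 61.6 CPM with vehicle. The difference was -0.30 ± 0.10 (SE, edgeR adjusted p = 0.0885), with every atractylodin library lower. Mrps22 (chromosome 9, 98588730 to 98601660), mutated in a human mitochondrial disease, was apart the other way, at 33.3, 31.6 and 36.8 CPM with atractylodin and 28.0, 22.1 and 29.6 CPM with vehicle (0.37 ± 0.14 SE, edgeR adjusted p = 0.137). The abundant Mrps12, of the decoding centre, stood at 71.8 to 77.2 CPM with atractylodin and 74.1 to 87.2 CPM with vehicle. Mrps21 (55.4 to 71.7 and 50.1 to 61.3 CPM) and Mrps5 (50.7 to 63.5 and 57.7 to 60.8 CPM) overlapped too.

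Scaling by total counts, without TMM, called 4 of 77 mitochondrial members lower and 0 of 85 cytosolic ones, beside 707 of 12505 rows lower in all. The mitochondrial share was thus near that of all rows, whose median was -0.087 under this scaling. The 4 members were Mrpl27, Mrps17, Mrpl4 and Mrpl3, with log2 fold changes of -0.50, -0.39, -0.52 and -0.58 and edgeR adjusted p of 0.0246, 0.0306, 0.0306 and 0.0339.

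Rows of paralogs were read apart from the core proteins. Rpl36al, an autosomal copy of the X-linked Rpl36a, stood at 201, 174 and 200 CPM with atractylodin and 207, 203 and 216 CPM with vehicle (-0.12 ± 0.09 SE, edgeR adjusted p = 0.484). Rpl36a itself stood at 42.0, 41.7 and 41.3 CPM with atractylodin and 36.6, 36.2 and 34.2 CPM with vehicle (0.23 ± 0.12 SE, edgeR adjusted p = 0.263), so the pair lay apart in opposite directions, without a call. The whole Rpl36a transcript end also occurs in other annotated genes, as do 48.3% of the words (defined below) of the Rpl36al end. The counts of both rows are therefore uncertain. Rps27l, a p53-inducible paralog of Rps27, stood at 225 to 240 CPM with atractylodin and 209 to 220 CPM with vehicle. Rpl22l1, the paralog that Rpl22 restrains in mouse, overlapped (34.6 to 51.2 and 36.1 to 40.1 CPM), as did Rpl7l1 (57.2 to 62.5 and 55.0 to 63.0 CPM). Rps4l stood at 16.5, 23.2 and 25.9 CPM with atractylodin and 18.8, 13.7 and 19.4 CPM with vehicle (0.37 ± 0.19 SE, edgeR adjusted p = 0.286). The row Rps19bp1, which the naming rule takes in, encodes a binding partner and not a ribosomal protein, and stood at 15.4 to 17.1 and 16.2 to 19.4 CPM.

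Retrocopies, which arise from reverse-transcribed mRNA, held more counts than their parent gene in some cases and fewer in others. Rpl37rt, annotated in GENCODE M21 as a transcribed processed pseudogene (chromosome 5, 115102923 to 115110268), stood at 626, 609 and 533 CPM with atractylodin and 557, 566 and 559 CPM with vehicle. The parent Rpl37 stood at 144, 144 and 141 CPM with atractylodin and 142, 137 and 144 CPM with vehicle. Rps27rt (52.7 to 65.5 CPM with atractylodin and 51.9 to 60.5 CPM with vehicle) likewise held more counts than Rps27 (11.9 to 20.1 and 11.7 to 18.3 CPM), whose start sites are printed above. Rps4l, of the same annotated type as Rpl37rt, held fewer counts than Rps4x, which stood at 119, 111 and 95.5 CPM with atractylodin and 93.7, 101 and 102 CPM with vehicle. Of the words of the Rpl37rt transcript end (defined below), 85.4% also occurred in other genes, Rpl37 among them. For Rps27rt the share was 80.8%, with Rps27 among the genes. How such reads were divided is not given in the sources used here. Whether Rpl37rt and Rps27rt exceed their parents is therefore uncertain.

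Shared transcript ends were counted for both ribosomes, without a test. The last 200 bases of each gene's principal transcript in GENCODE M21 were cut into 50-base words, and a word was called shared where it also occurred in a transcript of another gene. Some words were shared for 52 of 85 cytosolic members (61.2%), 10 of 77 mitochondrial members (13.0%) and 6.57% of 11692 tested rows with 1 matching gene. More than 50% of words were shared for 33 cytosolic and 2 mitochondrial members. Cytosolic members with no shared word had a median level of 139 CPM, and those with more than 50% shared 83.5 CPM. The order was the other way for mitochondrial members (35.1 CPM with none shared and 71.2 CPM for the 2 with more than 50%) and over all tested rows (14.5 and 17.6 CPM). For Rps27 all words were shared, mostly with pseudogenes and with Rps27rt. Over members with no shared word, a choice made after seeing the data, the log2 ratio of the ribosomes was 0.91, 0.92 and 0.84 with atractylodin and 0.76, 0.74 and 0.74 with vehicle, again without overlap.

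**Figure D4:**
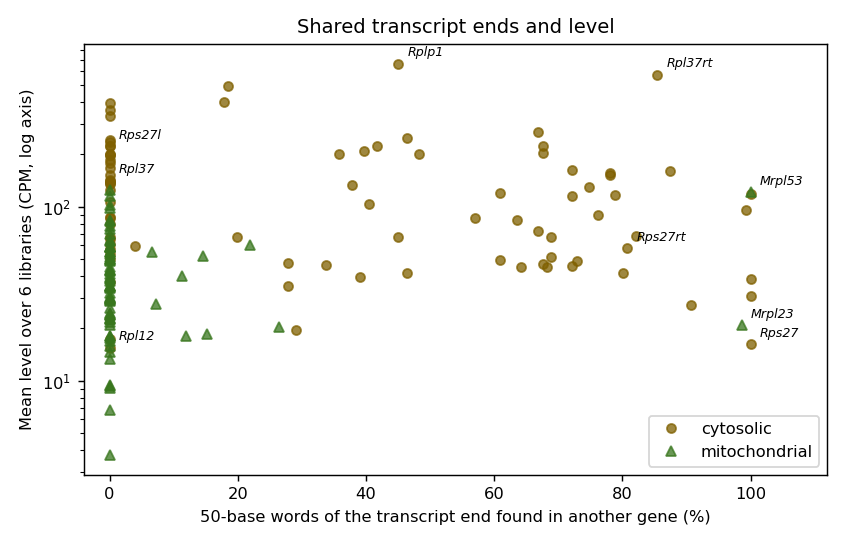
Percentage of 50-base words of a member's transcript end that occur in another gene (x axis) and mean CPM over the 6 libraries (y axis, log scale); circles are cytosolic and triangles mitochondrial members. Shared ends are found for 52 of 85 cytosolic and 10 of 77 mitochondrial members, with Rps27 at 100% and the lowest level among cytosolic members that share words.

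Proteins of either ribosome that carry other names were listed apart. The cytosolic ones gave 0 calls of 3 in edgeR (0 at an unadjusted p of 0.05) and a median log2 fold change of 0.01. The 6 mitochondrial ones gave 0 calls in edgeR (1 at an unadjusted p of 0.05) and a median of -0.01. Among these, Dap3, a GTP-binding protein of the small subunit named after its values were seen, stood at 26.0, 26.5 and 29.7 CPM with atractylodin and 35.0, 33.9 and 38.0 CPM with vehicle (-0.38 ± 0.13 SE, edgeR adjusted p = 0.0814). Of 18 elongation factors and other mRNAs with an oligopyrimidine start, 0 passed in edgeR, with 2 at an unadjusted p of 0.05 (median 0.09). Their most abundant member, the elongation factor Eef1a1, stood at 1356, 1298 and 1120 CPM with atractylodin and 1210, 1299 and 1159 CPM with vehicle. Of 28 mitochondrial translation factors and tRNA synthetases, 0 passed in edgeR, with 2 at an unadjusted p of 0.05 (median -0.0041). DESeq2 and limma-voom also called 0 genes in each of these 4 lists, and 21.5% of all rows lay under an unadjusted p of 0.05.

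Among genes of cytosolic ribosome biogenesis, the longest of the lists, some passed. Besides assembly factors, the list holds genes of rRNA transcription such as Polr1a and Polr1c. Of 36 tested, 3 rose, where 3.92% of all rows were called higher, and 0 fell, with a median log2 fold change of 0.25 and 28 estimates above 0. At an unadjusted p of 0.05 in edgeR, 12 were higher (33.3%, against 11.1% of all rows) and 0 lower. DESeq2 called 3 of the 36, and limma-voom called 2, without Gnl3. Nop58, a core protein of the box C/D snoRNPs that methylate rRNA, stood at 59.3, 45.4 and 45.7 CPM with atractylodin and 26.9, 34.8 and 28.1 CPM with vehicle (0.72 ± 0.14 SE, edgeR adjusted p = 0.00391). Tsr1, which matures the small subunit, stood at 41.8, 49.1 and 48.1 CPM with atractylodin and 30.7, 32.5 and 31.4 CPM with vehicle (0.55 ± 0.12 SE, edgeR adjusted p = 0.00821). The third was Gnl3, encoding the nucleolar GTPase nucleostemin, at 83.2, 58.6 and 77.4 CPM with atractylodin and 49.0, 56.8 and 47.8 CPM with vehicle (0.51 ± 0.13 SE, edgeR adjusted p = 0.0254). Nop58 passed in each of the 6 fits that left out 1 library, Tsr1 in all but that without vehicle 3 (adjusted p = 0.0521). Gnl3 passed without atractylodin 2 and without vehicle 2 only.

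Of 22 genes of mitochondrial transcription and ribosome assembly, 1 passed in edgeR, where 7.25% of all rows did. At an unadjusted p of 0.05 in edgeR, 4 were higher (18.2%, against 11.1% of all rows) and 1 lower (4.55%, against 10.4%). Tfb2m, the transcription factor that melts mitochondrial promoters, rose to 41.8, 44.8 and 36.2 CPM with atractylodin, against 30.7, 29.6 and 26.2 CPM with vehicle (0.52 ± 0.13 SE, edgeR adjusted p = 0.0204), a call lost without atractylodin 2 (adjusted p = 0.0767), without vehicle 3 (adjusted p = 0.135) and under total counts (adjusted p = 0.0528). Of 22 regulators of ribosome synthesis and translation, 2 rose and 0 fell, where 3.92% of all rows were called higher and 3.33% lower. At an unadjusted p of 0.05 in edgeR, 6 were higher (27.3%, against 11.1% of all rows), Tsc1 and Eif4ebp2 among them, and 0 lower. Rheb, the GTPase that activates mTOR complex 1, stood at 32.8, 45.8 and 42.8 CPM with atractylodin and 27.4, 25.2 and 27.1 CPM with vehicle (0.62 ± 0.14 SE, edgeR adjusted p = 0.0115), but did not pass without atractylodin 2, vehicle 2 or vehicle 3 (adjusted p of 0.0548, 0.0569 and 0.0533), nor with libraries thinned to the shallowest total (adjusted p = 0.116). Larp4, which stabilises mRNAs through their poly(A) tails, stood at 92.2, 101.2 and 98.2 CPM with atractylodin and 79.7, 79.2 and 75.9 CPM with vehicle (0.32 ± 0.09 SE, edgeR adjusted p = 0.0495), and passed in none of the 6 fits that left out 1 library. Larp1, which binds the oligopyrimidine tract, overlapped, at 157, 186 and 169 CPM with atractylodin and 164, 169 and 182 CPM with vehicle.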

How the data were processed

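Each deposited file lists whole-number read counts by gene symbol, one file per liver library, per the file headers. RNA was taken up in Trizol and 500 ng went into QuantSeq 3′ libraries, per the labels' protocols. Bowtie2, bedtools and the build mm10 are named in the submitters' processing notes. The annotation, the strand setting and the treatment of reads matching several places are not given in the sources used here, so reads of ribosomal protein genes and their pseudogenes may have been split or dropped.

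After filterByExpr, 12505 rows remained; TMM factors were computed and the robust quasi-likelihood test applied in edgeR 4.0.16 (R 4.3.3), without covariates, with Benjamini-Hochberg adjustment at 0.05 over all rows. The test was checked on simulated data. SE is the log2 fold change over the square root of F. Intervals cover counting error only where so named. Members and lists were chosen with earlier results of these data known. Named members were the 3 most abundant and the 2 of smallest p in each subunit, tested paralogs, and up to 3 passing genes per list. Of the genes this rule names, 1 is not reported here. Others were named after their values were seen. Rpl37rt was added to the paralogs after the files were seen. Positions are from GENCODE M21 (GRCm38, also called mm10). Alternatives were DESeq2 1.42.0, limma-voom (limma 3.58.1), other scalings and filters, thinning, a replicate block and leaving out each library. The labels give no batch. Libraries differed by more than counting noise (chi-square per degree of freedom of at least 2.75 for every pair). Figures used matplotlib 3.10.9.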

Additional observations from a re-analysis of the deposited data

How the results depend on the processing

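No cytosolic member passed under any of the 15 alternatives fitted. The count of mitochondrial members called was 4 under scaling by total counts, 1 without a filter on low counts, 0 to 1 over the fits that left out 1 library, and 0 otherwise. Scaling by total counts gave medians of 0.025 for cytosolic and -0.12 for mitochondrial members, with -0.087 over all rows. Over the whole table, 467 to 751 rows passed with 1 library left out (494 without vehicle 1, 467 without vehicle 3) and 525 with all libraries thinned to the shallowest total. The difference in the log2 ratio of the ribosomes was 0.10 to 0.15 with 1 library left out, 0.12 over core proteins, 0.13 from mean log2 CPM, 0.14 without the 5 most abundant members of each and 0.11 after thinning. In settings chosen after seeing the data, it was 0.12 with the pseudogene rows added and 0.12 over core proteins also without Rpl37rt. Libraries with the same replicate number showed no sign of pairing (correlations of deviations -0.03, -0.09 and 0.02). With 3 libraries per group, such values cannot show that the libraries were unpaired. A fit with the number as a block called 811 rows and 0 members, and Gnl3 and Larp4 did not pass in it. Gnl3 passed in 7 and Larp4 in 2 of 15 alternatives. Depth is limited by vehicle 1, with 1831461 counts, and Mrpl21 stood at only 1.08 CPM in it.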
